A study of Homo sapiens with 5 samples.

Results

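SF-1 sites in gene deserts were the peaks whose centre lay more than 100 kb from the body of every annotated gene, coding or not, and more than 1 Mb from any run of 1 Mb or more of unknown bases in the hg19 genome. Of 30372 SF-1 peaks in 4 lists, 453 met this rule, and they formed 437 distinct sites. Steroidogenic factor-1 (SF-1, encoded by NR5A1) was mapped by chromatin immunoprecipitation and sequencing in H295R/TR SF-1, a derivative of the established human adrenocortical tumor line H295R in which doxycycline induces extra SF-1. The 4 groups combined basal SF-1 dosage (no doxycycline) or overexpressed SF-1 (doxycycline for 3 days) with an antibody from Millipore or from Perseus, and each list came from 3 libraries pooled against input DNA. All groups were cells of this derivative, so each carried the transgene. With 1 list per group there was no replicate error, and every interval below covers counting error over peaks only.

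SF-1 is a nuclear receptor that binds DNA as a monomer and drives the steroidogenic genes of adrenal cortex and gonads. The sequence it prefers is an extended nuclear receptor half-site, searched here as the SF-1 consensus YCAAGGYCR, with Y for C/T and R for A/G, on both strands and without mismatch. Gene deserts are long stretches between genes. Some hold distant enhancers of developmental genes, whereas others have no known function.

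The consensus was present in 30 desert peaks, at 29 distinct sites. The peaks of 3 sites are printed because they carry the consensus and are among the 3 best-ranked desert peaks of their list. Sequences were read from the plus strand of the GRCh37 reference, in lower case, with the consensus in capitals on whichever strand it occurred. The first is the basal Millipore peak at chr2:72102701-72102949, between DYSF and CYP26B1, which overlapped peaks of 2 other lists. The second is the overexpressed Millipore peak at chr9:122888401-122888699, between BRINP1 and CDK5RAP2, the best-ranked desert peak of its list. The third is the overexpressed Millipore peak at chr7:42530951-42531249, upstream of GLI3.
DYSF-CYP26B1 peak: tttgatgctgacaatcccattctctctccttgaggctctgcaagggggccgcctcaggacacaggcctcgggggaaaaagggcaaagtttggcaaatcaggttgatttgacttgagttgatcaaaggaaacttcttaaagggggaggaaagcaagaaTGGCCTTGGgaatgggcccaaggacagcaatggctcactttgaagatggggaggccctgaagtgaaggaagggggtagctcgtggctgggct
BRINP1-CDK5RAP2 peak: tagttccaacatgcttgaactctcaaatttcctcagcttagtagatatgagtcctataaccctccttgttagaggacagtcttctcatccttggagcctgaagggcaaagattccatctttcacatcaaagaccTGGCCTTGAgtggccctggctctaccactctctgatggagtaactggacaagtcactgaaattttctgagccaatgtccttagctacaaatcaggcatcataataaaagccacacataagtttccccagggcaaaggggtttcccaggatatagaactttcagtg
GLI3 peak: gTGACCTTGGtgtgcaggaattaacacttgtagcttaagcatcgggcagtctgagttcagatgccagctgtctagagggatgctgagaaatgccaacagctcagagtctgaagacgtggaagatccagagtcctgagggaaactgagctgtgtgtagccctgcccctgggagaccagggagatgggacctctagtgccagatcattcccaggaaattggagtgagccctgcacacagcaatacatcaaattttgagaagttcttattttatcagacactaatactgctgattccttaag

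A pair of sequences is printed because both carry the consensus close together. They came from a stretch upstream of the protocadherin gene PCDH7, where basal Perseus peaks at chr4:30547051-30547149 and chr4:30548401-30548499 had centres 1350 bp apart. In the 30 distinct positions of the consensus, the form TCAAGGTCA was found 15 times, CCAAGGTCA 8 times, CCAAGGCCA 4 times and TCAAGGCCA 3 times, read on the strand of the consensus.
PCDH7 peak 1: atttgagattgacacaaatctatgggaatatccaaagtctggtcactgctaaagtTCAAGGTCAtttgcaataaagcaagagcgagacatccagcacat
PCDH7 peak 2: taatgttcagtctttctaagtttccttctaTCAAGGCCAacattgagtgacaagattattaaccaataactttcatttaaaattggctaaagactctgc

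Deserts of this kind covered 102.7 Mb in 875 intervals, 3.59% of the known bases of the genome, and every list had a smaller share of its peaks there. The basal Millipore list placed 120 of 4393 peaks in deserts, or 2.73% (Wilson 95% interval 2.29 to 3.26). For the overexpressed Millipore list the count was 164 of 11910, or 1.38% (1.18 to 1.6). The basal Perseus list had 94 of 6616, or 1.42% (1.16 to 1.74), and the overexpressed Perseus list 75 of 7453, or 1.01% (0.804 to 1.26). Per Mb of desert there were 1.17, 1.6, 0.915 and 0.730 peaks in these lists, in this order, against 1.55, 4.26, 2.37 and 2.68 peaks per Mb in the rest of the genome. The bases were counted whether or not short reads can be placed on them, so the base share is a description of the territory.

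**Figure D1:**
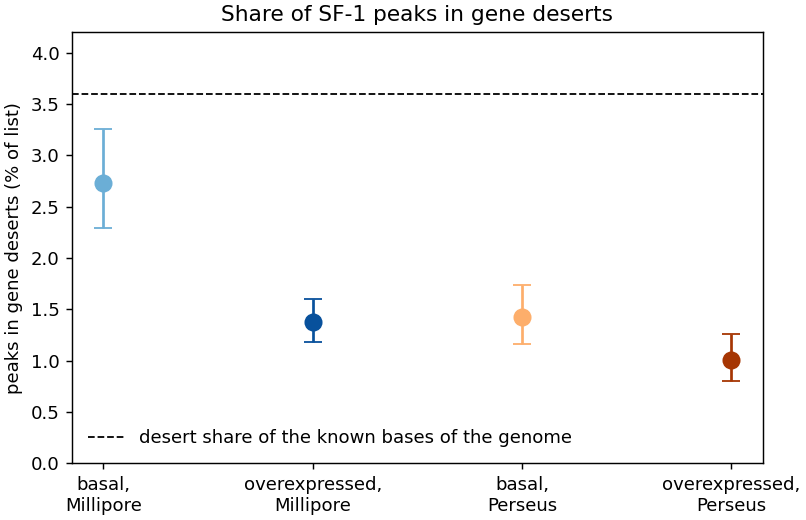
Percent of the peaks of each list (points, with Wilson 95% intervals for counting error) that lay in gene deserts, by dosage and antibody. The dashed line is the desert share of known bases, 3.59%, and all 4 points lie under it.

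The comparison of dosages asked whether overexpressed SF-1 reached deserts to the same extent as basal SF-1. With the Millipore antibody the desert share was 1.35 percentage points lower at overexpressed dosage (difference -1.35, Newcombe 95% interval -1.91 to -0.858), although the number of desert peaks was 1.37 times as high. With the Perseus antibody the difference was -0.414 points (-0.789 to -0.0528). Both intervals lay below 0. The odds ratios were 0.497 and 0.705, and their ratio, 0.705 (0.479 to 1.04), had an interval that included 1. With deserts set at more than 200 kb from genes the Perseus difference was 0.0165 points (-0.150 to 0.178). It rested on 14 basal and 17 overexpressed peaks and its interval included 0. A lower Perseus share at overexpressed dosage was therefore not resolved at that distance.

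The members lay between 100 and 424 kb from the nearest gene of any type (median 138 kb), and between 100 and 1963 kb from the nearest coding gene (median 400.3 kb). Closest to the limit on the inside was an overexpressed Millipore peak 100142 bp from the pseudogene ELOCP27, and closest on the outside was a basal Perseus peak 99983 bp from the pseudogene KSR1P1. The nearest gene of any type was a long noncoding RNA gene for 168 members, a pseudogene for 164, a coding gene for 62 and a gene of another type for 59. Relative to the nearest coding gene, 232 members lay downstream and 221 upstream. A total of 42 members were more than 1 Mb from every coding gene.

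The SF-1 consensus was rarer in desert peaks than in other peaks, but still more frequent than in the sequence around them. It occurred in 8 of 120 basal Millipore desert peaks, or 6.67% (3.42 to 12.6), where 16% of all peaks of that list held it. In the overexpressed Millipore list it occurred in 5 of 164, or 3.05% (1.31 to 6.94), against 10.9% of all peaks. With Perseus it was in 8 of 94 basal desert peaks, or 8.51% (4.38 to 15.9), and in 9 of 75 overexpressed ones, or 12.0% (6.44 to 21.3), against 21.6% and 17.2% of all their peaks. Compared with all other peaks of the list, the difference was -9.55 points (-13.0 to -3.52), -7.93 points (-9.76 to -4.00) and -13.3 points (-17.6 to -5.85) in the first 3 lists. In the overexpressed Perseus list it was -5.28 points (-10.9 to 4.02), an interval that included 0.

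In windows of the same width 5 kb to each side of the desert peaks, the consensus occurred in 4 of 906 windows, or 0.442% (0.172 to 1.13), against 30 of 453 peaks, or 6.62% (4.68 to 9.30). The 4 windows all belonged to the basal Millipore list. Desert peaks were often narrow, most of all in the Perseus lists. Widths of 99 bp or less made up 43.3%, 39.6%, 58.5% and 52% of desert peaks in the 4 lists. Among the other peaks they made up 36.8%, 27.0%, 33.8% and 32.9%, and only the basal Millipore interval of the difference included 0. The median width of desert peaks was 149 bp in the Millipore lists and 99 bp in the Perseus lists, where the peaks 10 to 100 kb from genes had a median of 149 bp. Per 10 kb of peak sequence the consensus was found 4.60, 2.05, 5.73 and 9.69 times in desert peaks, against 12.0, 7.18, 13.5 and 11 times in all other peaks of the same 4 lists.

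The share was also read by distance from genes. In the basal Millipore list the consensus was present in 17.8% of the peaks inside genes, in 15.3% of those up to 10 kb away, in 11.2% of those 10 to 100 kb away and in 6.67% of desert peaks. The overexpressed Millipore list had 11.6%, 10.2%, 8.78% and 3.05% in the same bands, and the basal Perseus list 23.6%, 18.8%, 17.4% and 8.51%. The overexpressed Perseus list did not fall steadily, with 18.0%, 15%, 17.3% and 12.0%. Set against peaks 10 to 100 kb from genes only, Millipore desert peaks differed by -4.49 points (-8.52 to 1.78) at basal and -5.73 points (-8.04 to -1.63) at overexpressed dosage. Perseus desert peaks differed by -8.87 points (-13.9 to -1.06) and -5.28 points (-11.5 to 4.31). The first and the last of these intervals included 0.

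**Figure D2:**
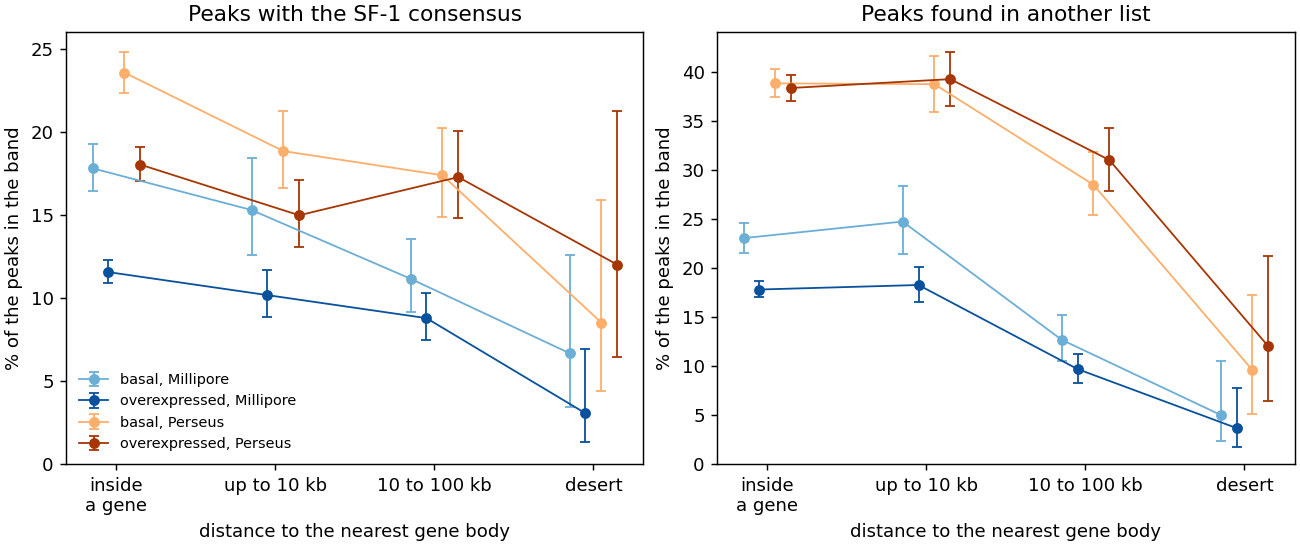
Percent of peaks with the SF-1 consensus (left) and found in another list (right), by distance from the nearest gene body, for the 4 lists, with Wilson 95% intervals. In the right panel the 4 desert points, 3.66% to 12.0%, are the lowest of their lists.

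The coding genes nearest to the consensus-bearing desert peaks had diverse roles. By the rule each lay more than 100 kb away, for example 107 kb at RBMS1 and 1127 kb at AUTS2. A link between peak and gene was not tested. Those of the basal Millipore list had as nearest coding genes DYSF (dysferlin, a membrane repair protein of muscle) at 2 peaks, and others that included RBMS1, EN1, MEI4, PABPC4L and TLE1. EN1 encodes the homeodomain factor engrailed-1, and TLE1 a Groucho-type corepressor. In the overexpressed Millipore list the nearest coding genes were CDK5RAP2, GLI3 (a transcription factor of the hedgehog pathway), DYSF, CNTN3 and GRIN3A. The basal Perseus list had PCDH7 at 2 peaks and, among others, SULF1, AUTS2, PLOD2, GALC and TCERG1L once each. The overexpressed Perseus list had SLC10A2, POM121L12, MGAT4C, ACTL7B, FLRT2, HS3ST5, LSAMP, KCNC2 and LRFN5. The LRFN5 peak, ranked 7045 of 7453, was the only desert peak with 2 copies of the consensus, and those copies overlapped each other.

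The consensus of NRSF/REST, the neuron-restrictive silencer factor that the study set beside SF-1, was searched on both strands with up to 4 mismatches over the 19 positions it fixes. It was present in 1 of the 453 desert peaks, the overexpressed Millipore peak at chr3:135398301-135398499, which ranked 8281 and lay 286 kb from PPP2R3A, a regulatory subunit gene of protein phosphatase 2A. The other 3 lists had 0 desert peaks with it, which allows up to 3.10%, 3.93% and 4.87% of desert peaks in the basal Millipore, basal Perseus and overexpressed Perseus lists (upper Wilson bounds). Over all peaks it occurred in 1.12%, 0.739%, 0.181% and 0.268% of the basal Millipore, overexpressed Millipore, basal Perseus and overexpressed Perseus lists, so a difference was not detectable with this number of desert peaks. A CTCF-type sequence, used as a control, was in 0 of the 453 and in 0.182%, 0.353%, 0.423% and 0.537% of all peaks.

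Desert peaks were seldom found in more than 1 list. A peak counted as found in another list when it overlapped a peak there by at least 1 bp. This was so for 6 of 120 basal Millipore desert peaks, or 5%, where 20.9% of all peaks of that list were found elsewhere. It was so for 6 of 164 overexpressed Millipore desert peaks, or 3.66%, against 16.6%. In the Perseus lists the counts were 9 of 94, or 9.57%, against 37.7% at basal dosage, and 9 of 75, or 12.0%, against 37.9% at overexpressed dosage. The difference from the other peaks of the list was -16.4 points (-19.3 to -10.8), -13.1 points (-15.2 to -8.99), -28.5 points (-33.1 to -20.8) and -26.1 points (-31.8 to -16.8), respectively. Against peaks 10 to 100 kb from genes it was -7.67 points (-11.4 to -1.79), -6.03 points (-8.55 to -1.71), -18.9 points (-24.5 to -10.7) and -19.0 points (-25.5 to -9.25), so all 4 intervals stayed below 0 in this comparison too.

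Of the 437 distinct sites, 423 were in 1 list, 13 in 2 lists, 1 in 3 lists and 0 in all 4. The site in 3 lists was the one between DYSF and CYP26B1, at chr2:72102551-72103049. CYP26B1 encodes an enzyme that breaks down retinoic acid. Its Millipore peaks ranked 135 at basal and 988 at overexpressed dosage. With the Perseus antibody it ranked 3060 at overexpressed dosage and had no basal peak. It lay 189 kb from DYSF and 254 kb from CYP26B1, and the nearest gene of any type was the pseudogene RPS20P10. The consensus was inside both Millipore peaks and outside the narrower Perseus peak. A second basal Millipore peak with the consensus, ranked 2902, had its centre 5550 bp away.

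Among the sites in 2 lists, the best ranked as a percentage of its list (0.684%, just ahead of a chromosome X site at 0.695%) was at chr11:48774451-48774749, between the olfactory receptor gene OR4A47 and TRIM51G. It ranked 51 in the overexpressed Perseus list and 152 in the basal Perseus list, and had no Millipore peak. It lay 2.82 Mb from the nearest long run of unknown bases, and 32.7% of the 16 bp words of the overexpressed Perseus peak had at least 100 copies in the genome. The BRINP1-CDK5RAP2 site ranked 146 with Millipore and 7050 with Perseus, both at overexpressed dosage. A site 177 kb from CTNND2, which encodes delta-catenin of neuronal adherens junctions, ranked 1542 and 1611 in the 2 Millipore lists. Sites near CDH9 and MAT2B were shared by the 2 basal lists, with ranks of 724 (Millipore) and 4794 (Perseus) at CDH9 and of 1486 and 6517 at MAT2B. A site near ACTL7B, 978 kb from KLF4 on its other side, was shared by the 2 Perseus lists at ranks 4108 and 3693, and held the consensus in the overexpressed peak.

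When centres within 500 bp counted in place of overlap, the numbers found elsewhere were 9 of 120, 7 of 164, 12 of 94 and 10 of 75 in the same order of lists. By this rule the difference from the other peaks of the list was -15.9, -16.0, -29.8 and -29.7 points, with every interval below 0. Some pairs were close without overlap. Near PCDH7 a basal Millipore peak (rank 3606) lay 174.7 kb from the gene and the Perseus peak ranked 5833 lay 174.9 kb from it. Near TLE1 the basal Millipore peak with the consensus (rank 3704) lay 486.7 kb and a basal Perseus peak (rank 2893) 487.0 kb from the gene. Starts in the lists fall on a grid of 50 bp.

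The lists order their peaks by a rank that begins at 1, and desert peaks were low in that order. Their median rank, as a percentage of the length of the list, was 57.4% and 61.2% in the basal and overexpressed Millipore lists and 65.5% and 75.6% in the Perseus lists. By construction 25% of the peaks of each list are in its best-ranked 25%. Of the desert peaks, 16 of 120 (13.3%), 29 of 164 (17.7%), 10 of 94 (10.6%) and 6 of 75 (8%) were in that range. The difference from the other peaks was -12.0 points (-17.1 to -4.64), -7.41 points (-12.6 to -0.810), -14.6 points (-19.4 to -6.65) and -17.2 points (-21.6 to -8.74). The quantity ranked on is not given in the sources used here.

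Among other peaks too the consensus and sharing were more frequent in the better-ranked 50%, so the comparisons were repeated within the better-ranked and the remaining 50% of each list. In the better-ranked 50%, 6 of 49, 4 of 64, 6 of 32 and 5 of 20 desert peaks were found in another list, or 12.2%, 6.25%, 18.8% and 25%, against 29.2%, 23.6%, 49.0% and 48.0% of the other peaks ranked so. All 4 intervals of the difference lay below 0. The consensus was in 4 desert peaks of the better-ranked 50% of each list, or 8.16%, 6.25%, 12.5% and 20%, against 21.6%, 14.2%, 24.9% and 20.1% of the other peaks. Here the interval of the difference lay below 0 in the basal Millipore list only. In the remaining 50% the consensus was in 4 of 71, 1 of 100, 4 of 62 and 5 of 55 desert peaks, and the difference was -5.14 points (-8.83 to 2.94), -6.70 points (-7.79 to -2.21), -12.2 points (-16.4 to -3.16) and -5.32 points (-10.6 to 5.23), with intervals below 0 in the overexpressed Millipore and basal Perseus lists. Sharing was lower there too, at 0 of 71, 2 of 100, 3 of 62 and 4 of 55 desert peaks. Of the other peaks ranked so, 13.5%, 9.91%, 27.0% and 28.1% were shared, and all 4 intervals of the difference lay below 0.

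**Figure D3:**
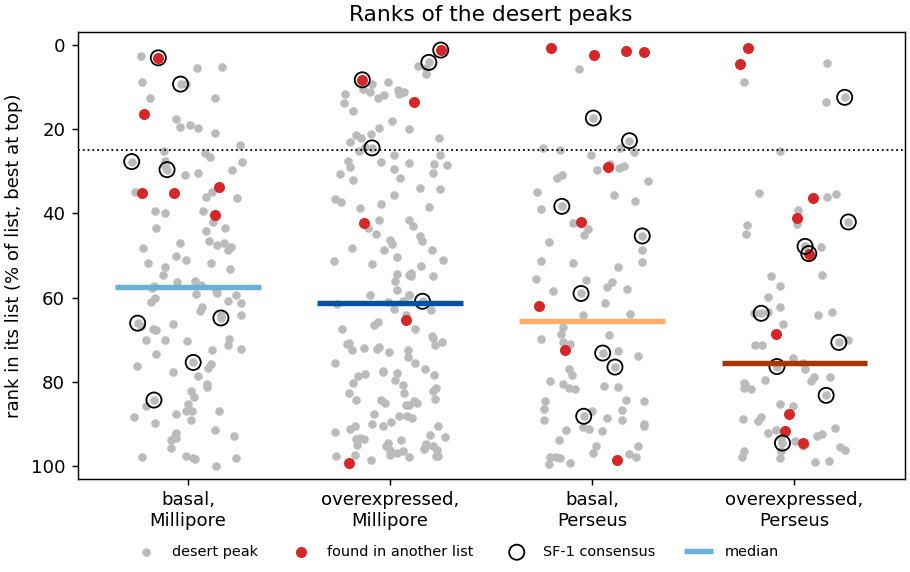
Rank of each desert peak as a percentage of its list (best at the top), by list, with the median as a bar. Red points are peaks found in another list, circles mark the SF-1 consensus, and the dotted line bounds the best-ranked 25%. The medians lie between 57.4% and 75.6%.

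The best-ranked desert peaks of the basal Millipore list were at rank 118 and rank 229, both in the stretch between SLC10A2, the bile acid transporter of the ileum, and DAOA, with the DYSF-CYP26B1 site between them at rank 135. Neither of the SLC10A2 peaks held the consensus or was found in another list. In the overexpressed Millipore list the order was the BRINP1-CDK5RAP2 site at rank 146, the GLI3 peak at rank 495 and a peak 249 kb downstream of the serotonin receptor gene HTR1A at rank 591. In the overexpressed Perseus list the TRIM51G site at rank 51 was followed by a peak between BMP4 and CDKN3 at rank 326 and by a chromosome X peak at rank 340. The 3 best-ranked desert peaks of the basal Perseus list, at ranks 46, 90 and 109, were all on chromosome X within a few kb of each other.

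Those chromosome X peaks lay in a tandem array. The array spanned chrX:88456454-88463527, 7074 bp in which 74.0% of bases equalled the base 37 positions before, and was 448 to 453 kb downstream of CPXCR1 at its peaks. It held 5 basal Perseus peaks, at ranks 46, 90, 109, 1624 and 4699, and 4 overexpressed Perseus peaks, at ranks 340, 2710, 5124 and 6829. The Millipore lists had 0 peaks in it. Basal Perseus peaks covered 36% of the array and overexpressed Perseus peaks 14.1%. None of the 9 held the SF-1 consensus. A run of 3 units from the best-ranked overexpressed Perseus peak, chrX:88462201-88462311, is printed to show the repeat.
Chromosome X array: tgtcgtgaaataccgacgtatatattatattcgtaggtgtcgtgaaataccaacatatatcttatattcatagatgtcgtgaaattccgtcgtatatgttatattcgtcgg

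**Figure D4:**
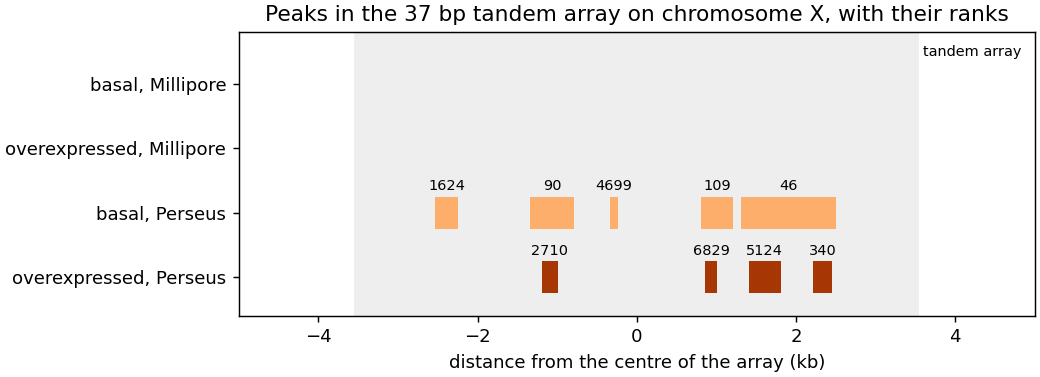
Peaks of the 4 lists (bars, labelled with their ranks) in the 37 bp tandem array on chromosome X (grey), by distance from its centre in kb. The Perseus lists have 5 and 4 peaks there and the Millipore lists 0.

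The array weighed on several Perseus results. Of the desert peaks found in another list, 3 of 9 at basal and 4 of 9 at overexpressed dosage lay in it. Without the array peaks, 6 of 89 (6.74%) and 5 of 71 (7.04%) were found in another list, and both differences from the other peaks remained below 0. Desert peaks with at least 60% of bases equal to the base a fixed distance before, at any distance up to 60 bp, numbered 0, 1, 6 and 4 in the 4 lists, against 0.433%, 0.966%, 1.22% and 1.27% of all peaks. The 2 outside the array were a basal Perseus peak with a period of 6 bp, at rank 386 and 244 kb from the cadherin gene CDH20, and an overexpressed Millipore peak with a period of 39 bp near IRX2.

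Desert peaks had few close neighbours in their own list. A further peak of the same list with its centre within 10 kb was present for 6 of 120 (5%), 14 of 164 (8.54%), 9 of 94 (9.57%) and 4 of 75 (5.33%) desert peaks, where the share among all peaks was 7.69%, 26.3%, 20.2% and 23.3%. The difference from the other peaks was -2.77 points (-5.59 to 2.76) in the basal Millipore list, which included 0, and -18.0 points (-21.5 to -12.7), -10.8 points (-15.4 to -3.11) and -18.1 points (-21.5 to -10.5) in the others. Against peaks 10 to 100 kb from genes it was smaller. There it was -1.84 points (-5.18 to 3.85), -6.38 points (-10.2 to -0.832), -7.68 points (-13.0 to 0.352) and -12.6 points (-16.9 to -4.58), in the order of lists. Deserts also held fewer peaks per Mb than the rest of the genome, so scarce neighbours partly restate that lower density. Without the chromosome X array, 4 of 89 basal and 0 of 71 overexpressed Perseus desert peaks had such a neighbour. The basal Millipore pairs lay between DYSF and CYP26B1, near MEI4 and near GBE1. The remaining basal Perseus peaks were the PCDH7 pair and a pair near PLOD2. The overexpressed Millipore pairs lay near genes that included POU3F3, which encodes a developmental transcription factor, TCERG1L, UNC5CL, PLA2G4A, SUDS3 and CCDC59.

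Repeated sequence was rare among desert peaks, as it was among all peaks. A copy of a word counted wherever it lay, also inside the same peak. A peak was counted as repeated when at least 50% of its 36 bp words occurred more than once in the reference, which was so for 0, 1, 2 and 0 desert peaks, against 0.41%, 0.437%, 3.34% and 2.94% of all peaks. The intervals of all 4 differences from the other peaks included 0. The rule on assembly gaps had removed 63 basal and 66 overexpressed Perseus peaks that were otherwise over 100 kb from genes, but only 4 and 8 Millipore peaks. In the Perseus lists those removed peaks had a median rank of 9.73% and 9.86% of the list, 54 of 63 and 54 of 66 were found in another list, and 35.8% and 40.1% of their 36 bp words were repeated on average. With them kept, the Perseus desert shares were 2.37% and 1.89%, and the differences in the best-ranked 25%, sharing, neighbours and repeats between Perseus desert peaks and other peaks were all above 0, with intervals that left out 0 for rank and for repeats.

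GC content differed between the desert peaks of the 2 antibodies. Overexpressed Millipore desert peaks had a mean GC content of 48.0% ± 7.19 (SD, n = 164 peaks), 9.04 ± 9.37 points above the windows 5 kb away, and 86.0% of them were above their windows. Basal Millipore desert peaks had 42.0% ± 7.06 (n = 120), 4.4 ± 8.73 points above theirs. The Perseus desert peaks had 36.7% ± 5.75 (n = 94) at basal and 37.1% ± 5.70 (n = 75) at overexpressed dosage, only 0.69 ± 7.53 and 1.76 ± 8.04 points above their windows. Inside genes the Perseus peaks were 9.68 ± 14.6 and 10.6 ± 14.7 points above their windows, and the Millipore peaks 4.61 ± 9.55 and 9.25 ± 10.7 points. At 10 to 100 kb from genes the excess was already small in the Perseus lists, 1.87 ± 10.1 and 1.9 ± 10.2 points, against 3.82 ± 9.26 and 8.43 ± 8.87 points in the Millipore lists. The low Perseus excess was therefore shared by desert peaks and by those 10 to 100 kb from genes. The spread is over peaks of 1 list, not over replicates, and its part in the other results was not tested.

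**Figure D5:**
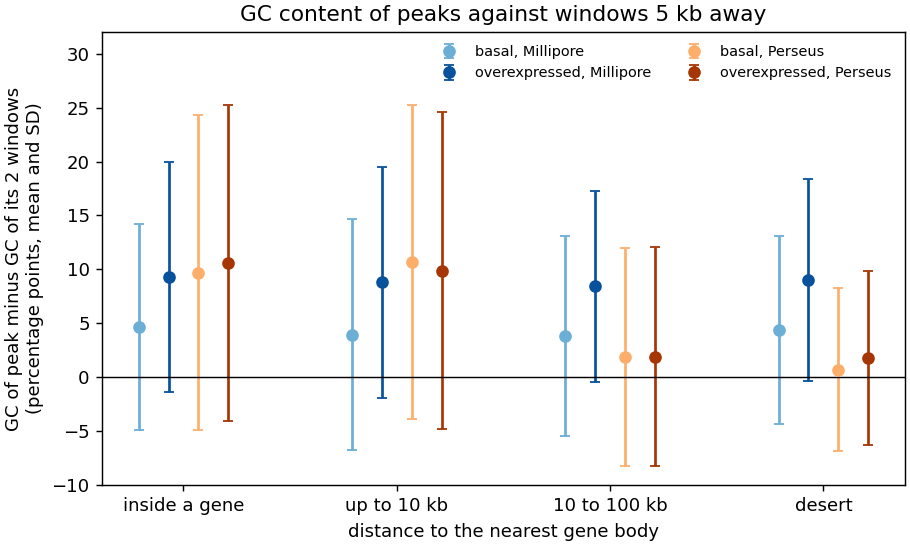
Mean GC content of peaks minus that of the 2 windows 5 kb away, in percentage points, by distance from the nearest gene body, with the SD over peaks as bars. In deserts the Perseus means are 0.69 and 1.76 points, and the Millipore means 4.4 and 9.04 points.

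By chromosome, the members did not follow desert territory evenly. Chromosome 3 held 8.04% of desert bases but 18 of 94 basal (19.1%, 12.5 to 28.3) and 15 of 75 overexpressed (20%, 12.5 to 30.4) Perseus desert peaks, against 10 of 120 (8.33%) and 17 of 164 (10.4%) Millipore ones. Chromosome 9 held 4.31% of desert bases and 9.57% and 13.3% of the Perseus members, and 9.46% and 9.62% of all peaks of the Perseus lists lay on it. Chromosome X held 10.2% of desert bases and 16 of the 453 members, 9 of them in the array. Chromosomes 19, 21 and Y had 0 members, with 0, 0.531 and 1.66 Mb of desert. The share of all basal and overexpressed Perseus peaks that lay on chromosome 3 was 7.98% and 8.25%. Intervals were computed for 24 chromosomes in each of the 4 lists, without correction for their number. Others also lay above the base share. Examples were chromosome 6 in the basal Millipore list (14.2%, 9.04 to 21.5, against 7.79%) and chromosome 10 in the overexpressed Millipore list (7.93%, 4.69 to 13.1, against 4.48%). Copy number in this cell line was not measured here.

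Of the 875 deserts, 250 held at least 1 member, 147 of them exactly 1 and 39 at least 3. The desert with the most peaks was the 664 kb upstream of ALCAM, a cell adhesion molecule of the immunoglobulin family, with 11 peaks in all 4 lists (1, 2, 4 and 4), none with the consensus. The chromosome X desert around the tandem array held 10 Perseus peaks. Adjacent deserts between SLC10A2 and DAOA held 7 peaks each, from 4 and 3 lists, and the desert upstream of PCDH7 held 7 from all 4 lists, 2 of them with the consensus. Other deserts with 7 peaks lay between BCKDHB and TENT5A and between TLE4 and TLE1, whose products are both Groucho-type corepressors. These deserts were picked for high counts and differ in length. The chromosome X desert had 54.0 peaks per Mb over 185 kb, the ALCAM desert 16.6, and the BCKDHB-TENT5A desert 9.53 over 734 kb.

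The nearest coding gene was 1 of 239 genes, of which 135 were nearest to a single member. ALCAM and CPXCR1 were each nearest to 11 members, DAOA, PCDH7 and TCERG1L to 8 each, CDH9, SLC10A2 and TLE1 to 7 each, and FLRT2 and POM121L12 to 6 each. For 9 genes the members came from all 4 lists: these were ALCAM, PCDH7, CDH9, SLC10A2, TLE1, FLRT2, POM121L12, EYS and RORB. Those members were mostly at different sites, since 0 sites were in all 4 lists. ALCAM had 10 sites for its 11 members and CDH9 6 for its 7, and at the rest of these 9 genes each member was a site of its own. Outside these 9, CPXCR1 had 7 sites for its 11 members and TCERG1L 7 for its 8. Of the CPXCR1 members, 9 were the Perseus peaks in the chromosome X array, so its count largely reflects 1 repeat. A gene beside a long desert has more room for peaks, so these counts were set beside the share of desert bases nearest to the gene. ALCAM was nearest to 2.43% of members and to 0.900% of desert bases, TLE1 to 1.55% and 0.326%, POM121L12 to 1.32% and 0.181%, and FLRT2 to 1.32% and 0.769%. For CPXCR1 these shares were 2.43% and 0.369%, for TCERG1L 1.77% and 0.389%, and for DAOA 1.77% and 0.813%. PCDH7 had 1.77% and 0.849%, CDH9 1.55% and 0.524%, and SLC10A2 1.55% and 0.568%. These 10 genes were picked for high counts in the same data, so a larger share of members than of bases is no test of any gene. EYS and RORB were each nearest to 1.10% of members, and to 0.474% and 0.287% of desert bases.

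Genes of steroid hormone synthesis and its control, 20 genes from STAR to SOAT1, were nearest to 0 of the 453 members. They were nearest to 0.0183% of desert bases. Cadherins and protocadherins, which join cells, were nearest to 22 members, or 4.86%, and to 5.06% of desert bases. Besides PCDH7 and CDH9 they were CDH5, CDH6, CDH8, CDH11, CDH18, CDH20 and PCDH9. Genes of synaptic and neurite adhesion were nearest to 12 members, or 2.65%, and to 5.12% of desert bases. This list held 53 genes of fixed families, among them SLITRK, CNTN, CNTNAP, NRXN, NLGN, LRRTM and FLRT. Adhesion genes outside those families were not counted, so both shares depend on the choice of families. The listed genes nearest to a member were FLRT2, CNTN3, CNTN5, CNTNAP5 and LSAMP.

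Genes of ionotropic glutamate receptors and of GABA-A receptors were nearest to 4 members, or 0.883%, and to 1.5% of desert bases, with 2 members each at GRIK2 and GRIN3A. Developmental transcription factors were nearest to 15 members, or 3.31%, and to 2.78% of desert bases. Of these, 5 were basal Millipore, 8 overexpressed Millipore, 2 basal Perseus and 0 overexpressed Perseus peaks. SOX5 was nearest to 3 members, IRX2 and POU3F3 to 2 each, and DACH1, IRX1, POU3F2, SALL3, TFAP2A and TFAP2B to 1 each. SOX5 members were a basal Millipore peak at rank 410 and overexpressed Millipore peaks at ranks 1265 and 11275, 100 to 154 kb downstream of the gene.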

How the data were processed

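The authors mapped reads to hg19 with ELAND v2 (CASAVA 1.6 per the submitters' processing notes) and called peaks with CisGenome v2 SeqPeak on the 3 libraries of a group together against 2 input libraries. The deposited lists give chromosome, start, end, a rank (used as a score of order only) and other columns, among them a constant, that hold no measurement. Read depth is unknown, so a deeper group may have yielded more and weaker peaks. Input has no list here. Positions were compared with GRCh37 and GENCODE version 44 (20163 coding genes of 64449).

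Desert bases were counted exactly, and the nearest gene of desert bases on a grid of 1000 bp. Repeats were measured as exact copies of 36 bp words, since the reference is not repeat-masked. Mappability was not modelled. Shares carry Wilson, differences Newcombe and odds ratios Woolf 95% intervals, which treat peaks as independent. A difference was called when its interval left out 0. No p-value was computed, as each group has 1 list. Members and gene lists were chosen with earlier results of these data known. The comparisons within the better-ranked and remaining 50% of a list and with peaks 10 to 100 kb from genes, the tandem measure and the chromosome X array were added after seeing the data.

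By rule, the text names the 3 best-ranked desert peaks per list, sites in several lists (the sites in 2 lists, DACH1 and other genes beyond the rule were chosen after their values were seen), the deserts with most peaks and the peaks with the NRSF/REST consensus. Named genes were the 10 nearest to most members and list members near peaks of at least 2 lists. Motif finding, word counts and intervals were tested on simulated data. Computation used numpy 2.4.6, scipy 1.17.1 and pandas 2.3.3 in Python 3.11.15. Some results at single genes are not reported here.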

Additional observations from a re-analysis of the deposited data

How the results depend on the processing

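No paired analysis was possible because each group has 1 list called on pooled libraries, which also leaves no replicate to leave out. Desert shares followed the definition of a desert, in the order basal Millipore, overexpressed Millipore, basal Perseus and overexpressed Perseus: 7.38%, 4.18%, 3.94% and 2.94% beyond 50 kb, 0.751%, 0.252%, 0.212% and 0.228% beyond 200 kb, and 21.9%, 12.3%, 11.7% and 9.86% when only coding genes counted. In the better-ranked 50% of each list they were 2.23%, 1.07%, 0.967% and 0.537%, and in lists of equal length 2.73%, 1.07%, 1.07% and 0.524%. Without the rule on assembly gaps they were 2.82%, 1.44%, 2.37% and 1.89%. The dosage difference turned from below to above 0 in 1 case, Perseus beyond 200 kb (0.0165 points). The difference in the SF-1 consensus had an interval that included 0 in the better-ranked 50% at -7.98 points (overexpressed Millipore) and -12.4 points (basal Perseus), against peaks 10 to 100 kb from genes at -4.49 points (basal Millipore), and in the remaining 50% at -5.14 points (basal Millipore). It left out 0 without the rule on gaps at -11.1 points (overexpressed Perseus). Against windows 20 kb away the interval included 0 at 2.13 points (overexpressed Millipore). For sharing, the difference was above 0 without the rule on gaps at 2.52 points (basal Perseus) and 6.95 points (overexpressed Perseus), and its interval included 0 among better-ranked peaks of all lists at -18.8 points (overexpressed Perseus). For rank, intervals included 0 for the best-ranked 10% at -4.28 points (basal Millipore), -4.74 points (basal Perseus) and -4.71 points (overexpressed Perseus) and against peaks 10 to 100 kb from genes at -4.72 points (overexpressed Millipore), and the direction turned without the rule on gaps at 7.67 points (basal Perseus) and 11.4 points (overexpressed Perseus). For neighbours, intervals included 0 within 1 kb at -4.41 points (basal Perseus) and -5.76 points (overexpressed Perseus), after merging peaks within 500 bp at -7.07 points (basal Perseus) and against peaks 10 to 100 kb from genes at -7.68 points (basal Perseus). They left out 0 within 100 kb at -11.4 points (basal Millipore) and with coding genes only at -2.91 points (basal Millipore), and the direction turned without the rule on gaps at 4.73 points (basal Perseus) and 1.57 points (overexpressed Perseus). For repeats, where no main interval left out 0, the sign turned without the rule on gaps at 0.408 points (basal Millipore), 8.32 points (basal Perseus) and 12.2 points (overexpressed Perseus), with coding genes only at 1.5 points (basal Perseus) and 1.12 points (overexpressed Perseus), with 50 bp words at -0.238 points (overexpressed Millipore) and with at least 90% of words at -0.128 points (overexpressed Millipore). Desert peaks with the NRSF/REST consensus numbered 0 with at most 3 mismatches, 2 with at most 5, and 17 with coding genes only. That last count is over far more desert peaks: 960, 1468, 772 and 735 in the 4 lists, in the order above. By nearest start in place of nearest body, 399 of 453 members kept their coding gene. In 120 of 175 recomputed values the direction and the call, or for shares and counts the size, were kept; why the others moved was not tested. Lists without read counts limit all of this to positions and order.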
